A study of Homo sapiens with 53 samples.

Results

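The human genome build hg19 holds, beside its numbered and sex chromosomes, sequences that could not be ordered on them and second versions of variable regions. These are alternate haplotype contigs, random contigs (assigned to a chromosome but not placed on it) and unplaced contigs. One unplaced contig, chrUn_gl000220, carries ribosomal DNA (rDNA). Peaks on all of these contigs were taken from 10 peak lists, that is, every peak whose sequence name was not chromosome 1 to 22, X, Y or M, after joining intervals that overlapped or touched. They numbered 4234 of 706206 peaks, on 9 haplotype, 19 random and 39 unplaced contigs, and 196 of them lay on chrUn_gl000220.

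The lists come from chromatin immunoprecipitation with sequencing (ChIP-seq) in HEK293T cells, a line derived from human embryonic kidney. Cells were treated for 72 h with 30 µM of the compound BPK-25, known here by its code name, or with its solvent DMSO. CTCF and MBD3 were immunoprecipitated from the parental cells with antibodies to these proteins, and TET1, TET2 or TET3 with an antibody to Flag from derived lines named for the Flag-tagged protein. Each of the 5 targets has a BPK-25 and a DMSO group, all of 3 labelled replicates except TET2 under DMSO with 2, and each group has a single list, taken as called on its pooled replicates. The lists therefore carry no spread between replicates, no test between treatments was possible, and every interval given here is an exact Clopper-Pearson 95% interval that covers counting error only. The labels do not say how the Flag-tagged lines were selected or whether a line is a single clone.

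CTCF is a zinc-finger DNA-binding protein found at insulators and at the anchors of chromatin loops. MBD3 is a subunit of NuRD, a complex that remodels nucleosomes and removes acetyl groups from histones, and the TET proteins oxidise 5-methylcytosine. Ribosomal DNA is a tandem array in which each unit holds the genes of the large ribosomal RNAs, transcribed by RNA polymerase I in the nucleolus, and an intergenic spacer. Only a part of the copies is transcribed at a time; CTCF is known to bind rDNA, and NuRD is known to act at rDNA promoters. Of the haplotype contigs named below, those of chromosome 6 are versions of the major histocompatibility complex (MHC), the region of the HLA genes, and chr17_ctg5_hap1 is the inverted version of the chromosome 17 region that holds MAPT, the gene of the tau protein. Contigs of the MHC represent the same region 7 times, so their peaks are not independent of each other.

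Depth differed between lists. The genome background of a list, the lowest local background that its peaks show, depends on how many fragments the group's libraries hold. CTCF had 2.58 fragments under BPK-25 and 3.68 under DMSO, MBD3 2.57 and 3.21, TET1 1.75 and 1.85, TET2 1.05 and 1.25, and TET3 1.65 and 1.70. Pileups (the fragments stacked at a summit) and local backgrounds are given as multiples of this value. Fold enrichment, the ratio of pileup to local background at the summit, is the authors' value, and the pileup and local background were solved from it and the authors' p-value.

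The first question was how the contig peaks of BPK-25-treated cells compared in number with those of DMSO-treated cells. For CTCF the haplotypes and the other contigs went in opposite directions. The BPK-25 list had 351 CTCF peaks on haplotype contigs, against 1019 in the DMSO list, a ratio of 0.344. On random contigs it had 255 against 81, and on unplaced contigs 468 against 132, ratios of 3.15 and 3.55. The placed chromosomes had 244345 against 98355 CTCF peaks, a ratio of 2.48, so the random and unplaced contigs moved with the placed chromosomes and the haplotypes did not. In all, contigs held 1074 CTCF peaks under BPK-25, or 0.438% of the list (0.412 to 0.465), and 1232 under DMSO, or 1.24% (1.17 to 1.31).

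MBD3 had somewhat more haplotype peaks under BPK-25, 378 against 304 under DMSO, a ratio of 1.24. Its placed chromosomes had 242116 against 81865, a ratio of 2.96, so the MBD3 haplotypes also lay below their list, though not below 1 as for CTCF. Random contigs held 285 and 74 MBD3 peaks, and unplaced contigs 434 and 115, ratios of 3.85 and 3.77. Contig peaks made up 0.451% of the BPK-25 MBD3 list (0.425 to 0.478) and 0.599% of the DMSO list (0.547 to 0.654).

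The Flag lists were much shorter. TET1 had 31 contig peaks under BPK-25 and 47 under DMSO, TET2 68 and 20, and TET3 97 and 75. Their shares of the list were 6.94% (4.76 to 9.70) against 0.790% (0.581 to 1.05) for TET1, 13.4% (10.5 to 16.6) against 1.62% (0.994 to 2.49) for TET2, and 0.726% (0.589 to 0.885) against 0.531% (0.418 to 0.665) for TET3. Haplotype peaks were fewer under BPK-25 for all 3 TET proteins, at 6 against 37, 6 against 11 and 39 against 61, ratios of 0.162, 0.545 and 0.639. The whole lists had 447 against 5951 TET1, 509 against 1233 TET2 and 13360 against 14129 TET3 peaks, ratios of 0.0751, 0.413 and 0.946, so the haplotype ratio was above that of the list for TET1 and TET2 and below it for TET3. Unplaced contigs held 14, 18 and 36 TET1, TET2 and TET3 peaks under BPK-25, against 0, 0 and 3 under DMSO. The order of the total depended on the setting for TET1, which had 29 contig peaks under BPK-25 and 26 under DMSO at a −log10 q of at least 5, and 25 and 10 without the haplotypes. It did so too for TET3, with 70 and 72 without the rDNA contig.

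**Figure D1:**
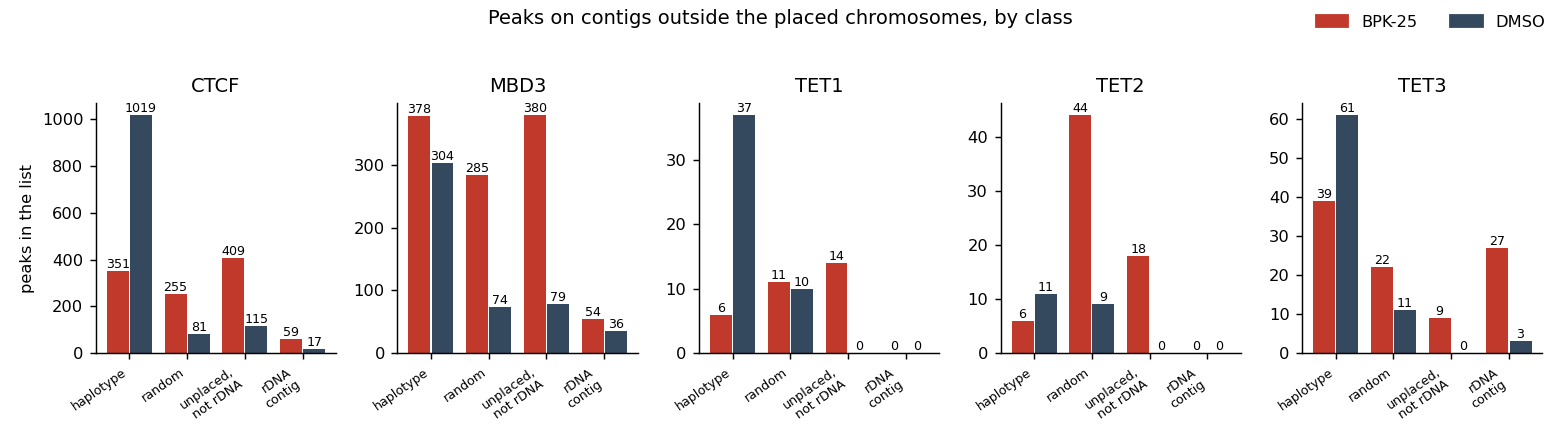
Number of peaks (y axis, linear, with its own scale in each panel) on 4 classes of contig for the 5 targets, with the BPK-25 list left of the DMSO list. CTCF haplotype peaks numbered 351 under BPK-25 and 1019 under DMSO, while the other 3 CTCF classes had more peaks under BPK-25.

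The lower number of CTCF peaks on haplotypes under BPK-25 was seen on the MHC contigs and on chr4_ctg9_hap1, which had 2 against 7. The 7 MHC contigs together had 239 CTCF peaks under BPK-25 and 942 under DMSO, a ratio of 0.254. Each of them had fewer under BPK-25: 40 against 165 on chr6_cox_hap2, 32 against 146 on chr6_qbl_hap6, 50 against 145 on chr6_mcf_hap5, 43 against 142 on chr6_dbb_hap3, 39 against 142 on chr6_ssto_hap7, 21 against 122 on chr6_mann_hap4 and 14 against 80 on chr6_apd_hap1. The contig chr17_ctg5_hap1 went the other way, with 110 CTCF peaks under BPK-25 and 70 under DMSO. For MBD3 the MHC contigs had 261 and 260 peaks, and chr17_ctg5_hap1 had 112 and 43.

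The corresponding stretches of the placed chromosomes, chosen after the contig counts were seen, did not show the lower number. Chromosome 6 between 28 and 34 Mb, which holds the MHC, had 395 CTCF peaks under BPK-25 and 311 under DMSO. Chromosome 17 between 43 and 45 Mb had 406 and 137. Local background moved with this difference and its part in it was not tested: it was at the genome background for 82.4% of the CTCF peaks on MHC contigs under BPK-25 and for 91.7% under DMSO, against 19.7% and 58.5% between 28 and 34 Mb of chromosome 6. Over all placed chromosomes the share was 11.9% under BPK-25 and 17.4% under DMSO. How reads that match several versions of a region were assigned is not given in the sources used here.

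The next comparison asked how many DMSO contig peaks were met, over at least 1 bp, by a peak that the same target had under BPK-25, here called retained. For CTCF 204 of 1232 contig peaks were retained, or 16.6% (14.5 to 18.8), against 38864 of 98355 on placed chromosomes, or 39.5% (39.2 to 39.8), and 39.2% over the whole list. The haplotypes were lowest: 100 of 1019 haplotype peaks were retained (9.81%, 8.06 to 11.8), and 67 of 942 on the MHC contigs (7.11%, 5.55 to 8.94). On chr17_ctg5_hap1 32 of 70 were retained (45.7%, 33.7 to 58.1), on random contigs 34 of 81 (42.0%, 31.1 to 53.5) and on unplaced contigs 70 of 132 (53.0%, 44.2 to 61.8). The interval for unplaced contigs lay above that of the placed chromosomes and those for random contigs and chr17_ctg5_hap1 included it. On chrUn_gl000220 17 of 17 were retained. Unplaced contigs without it had 53 of 115 (46.1%, 36.8 to 55.6), an interval that included the share of the placed chromosomes. Between 28 and 34 Mb of chromosome 6 the share was 26.0% (21.3 to 31.3), between that of the MHC contigs and that of all placed chromosomes. With a −log10 q of at least 10 in both lists the retained share of contig CTCF peaks was 5.26%, and without the haplotypes 48.8%.

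MBD3 contig peaks were retained more often. Of the DMSO MBD3 peaks on contigs 265 of 493 were retained, or 53.8% (49.2 to 58.2), against 61.4% on placed chromosomes and 61.4% over the whole list. By class these were 110 of 304 on haplotypes (36.2%, 30.8 to 41.9), 48 of 74 on random contigs (64.9%, 52.9 to 75.6) and 107 of 115 on unplaced contigs (93.0%, 86.8 to 96.9). Here too the MHC contigs were low, at 84 of 260 (32.3%, 26.7 to 38.4), and chr17_ctg5_hap1 was near the whole list, at 26 of 43 (60.5%, 44.4 to 75.0). At a −log10 q of at least 10 the share over all contigs was 32.1%, and without the haplotypes 82.0%.

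**Figure D2:**
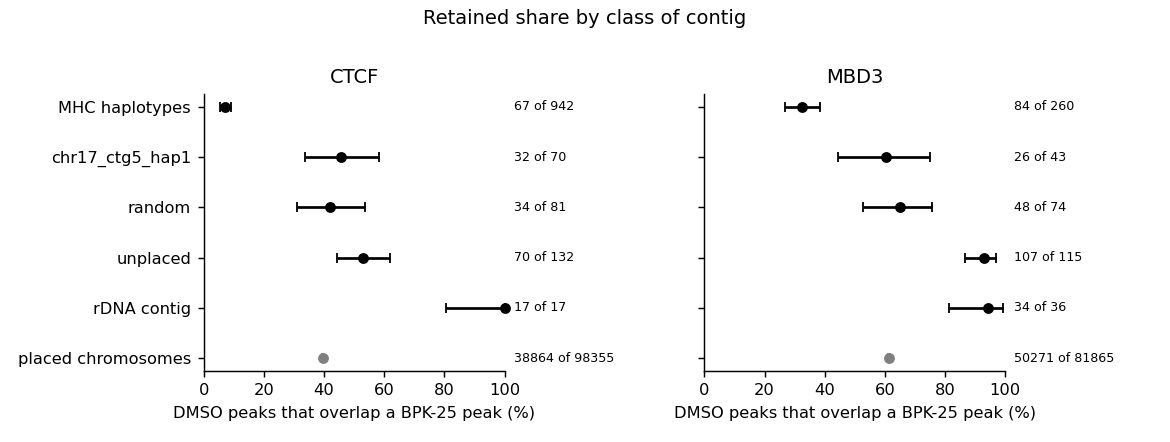
Share of DMSO peaks met by a BPK-25 peak (x axis, percent) for CTCF and MBD3, by class of contig, with placed chromosomes in grey at the bottom. Points are shares and bars exact 95% intervals. The MHC contigs had the lowest share shown for both targets, 7.11% for CTCF and 32.3% for MBD3.

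For the TET proteins the numbers were small. TET1 had 8 of 47 contig peaks retained (interval 7.65 to 30.8%), against 4.59% over its whole list. TET2 had 12 of 20 (interval 36.1 to 80.9%), against 24.7%, and TET3 31 of 75 (41.3%, 30.1 to 53.3), against 31.9%. Of the 12 retained TET2 peaks 8 were on chr9_gl000199_random, a contig of high local background described below.

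Seen from the other side, most BPK-25 contig peaks were new, that is, overlapped no DMSO peak. New peaks made up 860 of 1074 for CTCF (80.1%, 77.6 to 82.4), against 83.3% over the whole list, and 834 of 1097 for MBD3 (76.0%, 73.4 to 78.5), against 78.2%. For TET1 they were 23 of 31 (74.2%, 55.4 to 88.1), against 38.5%, for TET2 56 of 68 (82.4%, 71.2 to 90.5), against 40.3%, and for TET3 64 of 97 (66.0%, 55.7 to 75.3), against 65.8%. Contigs were thus above the whole list in new peaks for TET1 and TET2, and close to it for TET3. The haplotypes did not share this: 0 of 6 TET1 and 2 of 6 TET2 peaks there were new. Of the random and unplaced TET1 peaks 9 of 11 and 14 of 14 were new, and of those of TET2 36 of 44 and 18 of 18. All but 1 of these TET1 and TET2 peaks lay on chr9_gl000199_random and chrUn_gl000226, a pair of contigs of high local background.

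Fold enrichment on contigs was low in the BPK-25 CTCF list in every class. Median values were 3.63 under BPK-25 and 14.5 under DMSO on haplotypes, 3.76 and 12.5 on random contigs, and 3.63 and 8.94 on unplaced contigs. On placed chromosomes they were 3.71 and 11.3. A fold enrichment of 10 or more was reached by 10 of 1074 contig CTCF peaks under BPK-25 (0.931%; whole list 0.942%) and by 771 of 1232 under DMSO (62.6%; whole list 53.2%). For MBD3 these were 11 of 1097 under BPK-25 (1.00%; whole list 0.932%) and 23 of 493 under DMSO (4.67%; whole list 6.32%). Of the 23, 22 were on haplotypes.

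At sites where the summits of both lists lay within 100 bp, the pileup itself can be compared, still without a spread between replicates. At 68 such CTCF sites on haplotypes the pileup had a median of 5.43 times the genome background under BPK-25 and 8.96 times under DMSO, and 16 sites were higher under BPK-25. At 18 sites on random contigs the medians were 13.0 and 36.9, and 4 were higher. On unplaced contigs other than chrUn_gl000220, 12 of 26 sites were higher under BPK-25. For MBD3 the unplaced contigs were alike in direction: 30 of 34 sites off chrUn_gl000220 were higher under BPK-25, with a median pileup of 49.5 times the genome background against 11.4 times, while on haplotypes 19 of 79 were higher, with 5.84 against 8.09. On placed chromosomes 7243 of 21250 CTCF sites were higher under BPK-25, with a median ratio of pileups of 0.540, against 0.593 on haplotypes, 0.385 on random contigs and 0.678 on unplaced contigs off chrUn_gl000220. The CTCF classes off the rDNA contig thus lay on both sides of the placed chromosomes. For MBD3 17243 of 30760 placed sites were higher, with a median ratio of 1.11, against 0.707 on haplotypes and 4.27 on unplaced contigs off chrUn_gl000220.

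**Figure D3:**
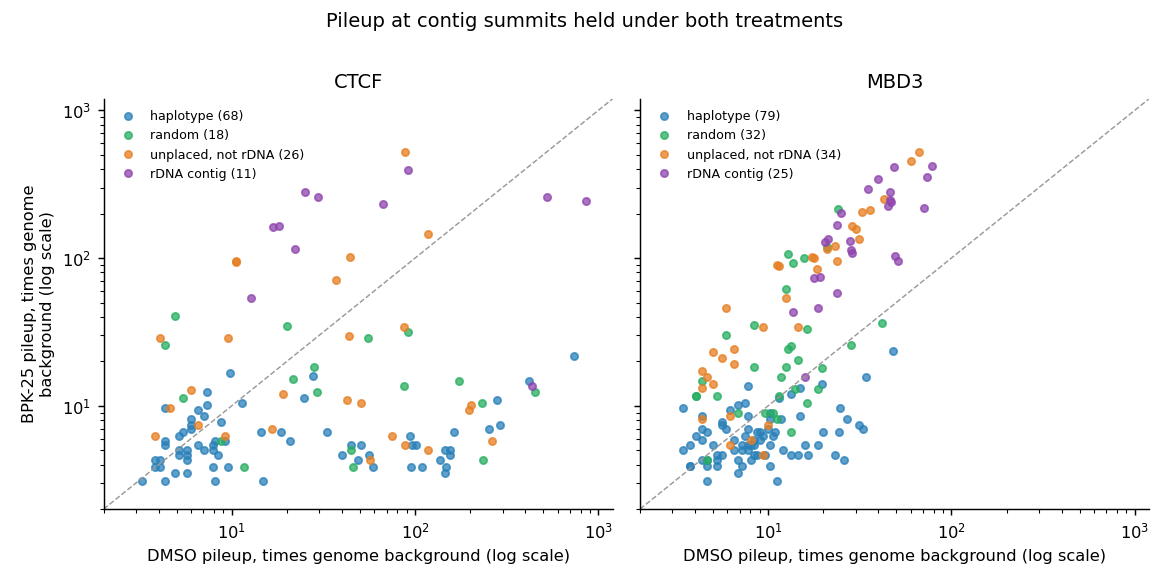
Pileup under BPK-25 (y axis) against pileup under DMSO (x axis), both as multiples of the genome background on log scales, at contig sites with summits within 100 bp in both lists. Each point is a site, colours mark the class with its number of sites, and the dashed line marks equal values. MBD3 sites on the rDNA contig lay above the line at 24 of 25 sites, and CTCF sites there at 8 of 11.

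The 5 retained CTCF peaks with the most significant DMSO values off the rDNA contig are given next as a description. Their overlap with a BPK-25 peak is part of how they were chosen, and choosing high DMSO values favours lower values under BPK-25. On chr17_ctg5_hap1, 493044 to 493810, the CTCF fold enrichment was 13.9 under BPK-25 and 204 under DMSO. MBD3 had 14.6 and 13.2 there, so under BPK-25 CTCF and MBD3 had nearly the same value. On chr17_gl000204_random, 58390 to 59387, CTCF had 5.00 and 166, and MBD3 3.72 and 6.82. On chr17_ctg5_hap1, 120367 to 121033, CTCF had 4.79 and 165, on chr11_gl000202_random, 15767 to 16947, it had 4.36 and 152, and on chr7_gl000195_random, 1 to 770, 5.11 and 127. By fold enrichment the order differed: the highest CTCF value on any contig under DMSO was 229, at a retained MBD3 peak on chr17_ctg5_hap1, 1005995 to 1006907, where CTCF had 6.43 under BPK-25.

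Other strong DMSO sites had no BPK-25 CTCF peak within 1000 bp. The strongest lay on chr7_gl000195_random, 103197 to 103862, with a DMSO fold enrichment of 161. The TET3 list had a peak there under BPK-25 with a fold enrichment of 5.63 and none under DMSO. On chrUn_gl000227, 114727 to 115259, CTCF had 136 under DMSO, and on chr6_mcf_hap5, 1021256 to 1021751, it had 133. A pair of such sites on chr1_gl000192_random, 476403 to 476943 and 505837 to 506638, had 74.9 and 71.0, and both had a TET3 peak under BPK-25, of 4.43 and 4.56, and none under DMSO.

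The most significant BPK-25 CTCF peaks with no DMSO CTCF peak within 1000 bp lay over a high local background, at 25.3 to 122 times the genome background. They were ranked by significance, and the part of this ranking in their high background was not tested. For the full set of contig CTCF peaks under BPK-25 the median local background was 1.55 times that of the genome. On chr4_gl000193_random, 79568 to 79962, CTCF had a fold enrichment of 9.50 over a local background of 25.3 times the genome background. MBD3 had 8.72 over 25.4 times at the same place. On chrUn_gl000222, 83599 to 84702, CTCF had 3.64 over 122 times and MBD3 3.69. On chrUn_gl000212, 40542 to 40721, CTCF had 3.21 over 119 times and MBD3 3.44. All 5 new CTCF peaks named by the rule had an MBD3 peak under BPK-25 with a fold enrichment near that of CTCF. Overlap with MBD3 was common in that treatment, at 69.0% of the whole CTCF list. MBD3 was listed under DMSO too at the chrUn_gl000222 site, with a fold enrichment of 1.85. The same held on chr4_gl000193_random, 88092 to 88417, with 2.48. The rest of the named sites had no MBD3 peak under DMSO.

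Under DMSO, MBD3 reached its highest contig fold enrichment on haplotypes, at 25.4, against 15.4 on unplaced and 8.46 on random contigs. Under BPK-25 the highest values were close, 14.6 on haplotypes and 14.1 on unplaced contigs. Values of at least 10 were then found at 2 haplotype, 2 random and 7 unplaced MBD3 peaks. On chr17_ctg5_hap1, 894503 to 894909, the MBD3 fold enrichment was 11.5 under BPK-25 and 25.3 under DMSO, with CTCF at 11.7 and 21.2. An MBD3 peak under DMSO lay at nearly the same position on 5 MHC contigs, in a search made after the values were seen. On chr6_cox_hap2 and chr6_ssto_hap7 there was none within 1000 bp of that coordinate. The contigs were not aligned to each other. The first CTCF peak under DMSO started at 40985 to 41004 on the 5, but at 21725 on chr6_cox_hap2 and 78491 on chr6_ssto_hap7. The search therefore cannot tell whether these contigs lack a peak at the matching site. On chr6_qbl_hap6, 824430 to 825000, MBD3 had 5.33 under BPK-25 and 25.4 under DMSO, on chr6_mcf_hap5, 824346 to 824875, 4.99 and 24.2, and on chr6_apd_hap1, 824778 to 825285, 3.64 and 18.0. On chr6_mann_hap4, 824107 to 824618, and chr6_dbb_hap3, 824492 to 825101, it had 22.1 and 16.4 under DMSO and no MBD3 peak under BPK-25. CTCF had a peak at all 5 under both treatments, of 2.80 to 6.15 under BPK-25 and 6.84 to 7.48 under DMSO.

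Over all contigs, CTCF and MBD3 peaks of the same treatment coincided more often under BPK-25, as over the whole lists. Of the contig CTCF peaks 779 of 1074 overlapped an MBD3 peak under BPK-25 (72.5%, 69.8 to 75.2; whole list 69.0%), and 242 of 1232 under DMSO (19.6%; whole list 36.9%). Of the contig MBD3 peaks 773 of 1097 overlapped a CTCF peak under BPK-25 (70.5%, 67.7 to 73.2; whole list 69.1%), and 241 of 493 under DMSO (48.9%, 44.4 to 53.4; whole list 43.3%). At a −log10 q of at least 10 the CTCF shares were 82.6% and 9.11%. Haplotypes had the lower share, 201 of 351 CTCF peaks under BPK-25 (57.3%) and 170 of 1019 under DMSO (16.7%). Seen from MBD3, the haplotype shares were close under both treatments, 201 of 378 under BPK-25 (53.2%, 48.0 to 58.3) and 168 of 304 under DMSO (55.3%, 49.5 to 60.9). The labels give CTCF and MBD3 the same parental inputs, so their lists share a source of local background.

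A single unplaced contig, chrUn_gl000228, stood next to chrUn_gl000220 in number of peaks. It had 53 CTCF peaks under BPK-25 and 14 under DMSO, and 50 and 28 for MBD3, and no TET peak. All 28 DMSO MBD3 peaks were retained, and 12 of 14 CTCF peaks. Its strongest DMSO CTCF peak had a fold enrichment of 154. Most of the BPK-25 peaks lay between 70 and 110 kb, 33 for CTCF and 34 for MBD3, against 5 and 24 under DMSO. Pileups in that stretch had a median of 15.5 times the genome background under BPK-25 and 4.07 times under DMSO for CTCF, and of 15.6 and 4.67 times for MBD3.

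Summits in that stretch recurred at a regular distance. A search of distances from 2 to 10 kb, made after the positions were seen, found the most frequent one at 3313 bp. Pairs of summits at this distance, within 50 bp, numbered 48 among 98 CTCF summits and 46 among 96 MBD3 summits under BPK-25. Under DMSO there were 0 among 19 and 2 among 33. Fewer summits give fewer pairs, so the lower number under DMSO is no measure of the periodicity there.

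The contig that carries rDNA was described on its own. On chrUn_gl000220 the BPK-25 lists had 59 CTCF, 54 MBD3 and 27 TET3 peaks, and the DMSO lists 17, 36 and 3. No TET1 or TET2 peak lay on it under either treatment. The BPK-25 peaks covered 36.7 kb for CTCF, 36.2 kb for MBD3 and 11.8 kb for TET3, against 11.8, 21.0 and 0.876 kb under DMSO. Joined over all lists, the peaks formed 56 regions between 6710 and 161751 that covered 43.4 kb. Of these, 36 were held by 3 or more lists and 7 by 1. Nearly all DMSO peaks were retained, 17 of 17 for CTCF (100%, 80.5 to 100), 34 of 36 for MBD3 (94.4%, 81.3 to 99.3) and 3 of 3 for TET3. Over the whole lists the retained shares were 39.2%, 61.4% and 31.9%. The part of the wide BPK-25 coverage in this was not tested. New peaks were 43 of 59 for CTCF (72.9%, 59.7 to 83.6), 23 of 54 for MBD3 (42.6%, 29.2 to 56.8) and 24 of 27 for TET3 (88.9%, 70.8 to 97.6). The whole lists had 83.3%, 78.2% and 65.8%, so MBD3 lay below its list, TET3 above it, and the CTCF interval included its list. No annotation of the contig was used, so positions are not assigned to genes, promoters, spacer or sequence outside the rDNA.

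CTCF under DMSO was enriched at a few sharp sites on the rDNA contig. The strongest, 92840 to 94123, had a fold enrichment of 115 at position 93700. Under BPK-25 the nearest summit, at 93719, had 2.81, and its pileup was 13.6 times the genome background against 432 times. Next came 96390 to 97354, with 3.26 under BPK-25 and 68.5 under DMSO. A site at 134321 had 2.61 and 31.8, with pileups of 244 and 855 times the genome background. A weaker site at 7737 had 3.27 and 16.1. The sites at 7737, 93700 and 96390 to 97354 lay in the first 100 kb, and whether they are in rDNA was not determined. At all 4 sites CTCF fold enrichment was lower under BPK-25. These sites, and the pair described next, were picked for their high DMSO values, a choice that favours lower values under BPK-25.

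A further pair of sharp CTCF sites lay 43971 bp apart. At 104531 the DMSO fold enrichment was 52.4 and at 148502 it was 41.0, with pileups of 526 and 525 times the genome background. The BPK-25 summits at 104520 and 148504 had 7.58 and 6.78, with 278 and 258 times. MBD3 showed the opposite at the same pair, 7.82 and 6.38 under BPK-25 against 4.53 and 3.26 under DMSO. Pileups of MBD3 there were 286 and 255 times against 43.3 and 40.8 times. Under BPK-25, then, CTCF and MBD3 had similar values at these sites, while under DMSO the CTCF pileup was far above that of MBD3.

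This distance was the most frequent one between summits on the contig in a search from 20 to 60 kb, made after the positions were seen. Within 20 bp of it there were 18 pairs among 113 CTCF summits, 19 among 116 MBD3 summits and 7 among 38 TET3 summits under BPK-25, and 5 among 32 CTCF and 14 among 68 MBD3 summits under DMSO. The TET3 DMSO list, with 3 summits, had none. The ratio of fold enrichment between the summits of a pair lay between 0.602 and 1.56 in the 63 pairs. The summits of these pairs thus had fold enrichments of similar size. The pairs were found from these same summits. How reads that match both positions were assigned is not given, so the values of a pair cannot be taken as independent.

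**Figure D4:**
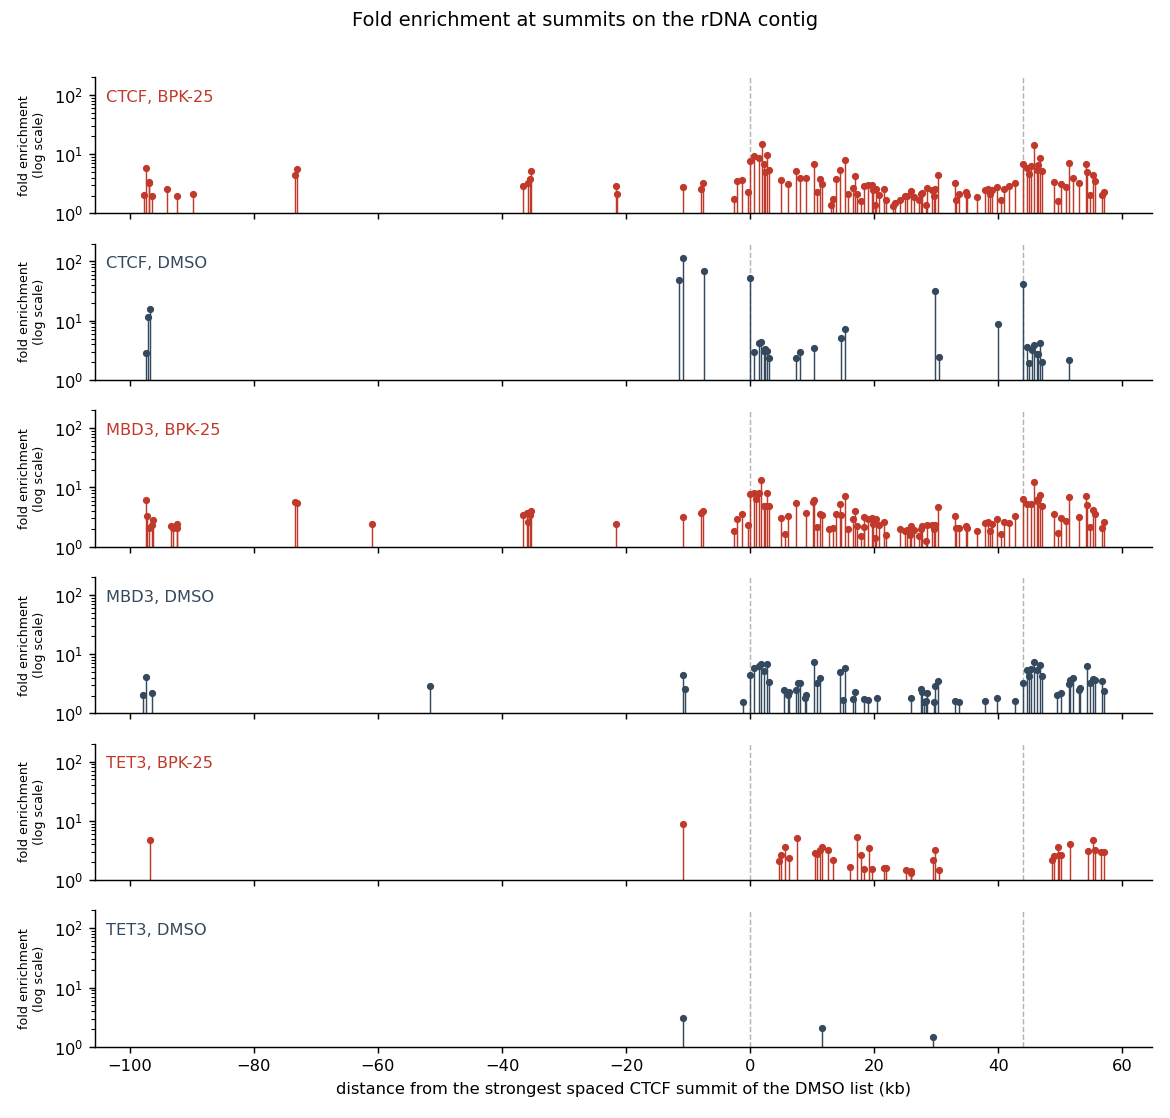
Fold enrichment (y axis, log scale) at every summit on the rDNA contig, by distance in kb from the CTCF summit of fold enrichment 52.4 in the DMSO list (x axis), with BPK-25 above DMSO for CTCF, MBD3 and TET3. Dashed lines mark that summit and the position 43971 bp from it. The tall CTCF sites under DMSO are low under BPK-25, where the CTCF and MBD3 profiles are nearly alike.

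Just beside the paired sharp sites CTCF was higher under BPK-25. At 106361 its fold enrichment was 14.7 under BPK-25, the highest on the contig in that list, against 4.44 at 106350 under DMSO. The pileups were 260 and 29.6 times the genome background. At the recurring position the values were 14.3 at 150331 under BPK-25 and 3.96 at 150286 under DMSO, with pileups of 282 and 25.0 times. MBD3 had 13.5 and 12.5 under BPK-25 at these positions and 6.90 and 7.43 under DMSO. The other summits from 105902 to 107613 ran the same way for CTCF, at 4.95 to 9.51 under BPK-25 against 2.35 to 4.23 under DMSO.

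Over the contig, 28 of the 32 DMSO CTCF summits had a BPK-25 CTCF summit within 100 bp. At 22 of them both fold enrichment and pileup were higher under BPK-25, and at 6 both were lower. The 6 were summits of sharp sites, with DMSO fold enrichments of 11.7 or more. DMSO summits at 97067 and 144430 were not matched, as their nearest BPK-25 summits, at 96961 and 144310, were over 100 bp away. At 97067 fold enrichment and pileup were both lower under BPK-25. At 144430 fold enrichment was 2.76 under BPK-25 and 8.90 under DMSO, but the pileup was higher under BPK-25, at 261 against 194 times the genome background. For MBD3, 52 of 68 DMSO summits had a counterpart. Pileup was higher under BPK-25 at 51 of the 52, with a median ratio of 4.14, and fold enrichment at 38, with a median ratio of 1.26. Summits that recur 43971 bp apart were counted at both positions, so these sites are not independent of each other. Under DMSO such pairs numbered 5 among the 32 CTCF and 14 among the 68 MBD3 summits. The same limit holds for the other counts of summits and sites on this contig.

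The local background differed as well, and this moved with the number of peaks. It was higher under BPK-25 at 27 of the 28 CTCF sites, by a median of 3.24 times (0.876 to 4.24), and at 52 of the 52 MBD3 sites, by a median of 3.77 times (1.18 to 5.81). At shared CTCF sites on haplotypes the median ratio of local background was 1.00, and on placed chromosomes 0.988. A higher background was also found on other contigs: the median ratio for CTCF was 1.63 on unplaced contigs without chrUn_gl000220 and 1.33 on random contigs, and for MBD3 3.28 and 1.48. It moved there with the higher MBD3 pileups of unplaced contigs given above. The genome background to which these values refer was itself lower under BPK-25. How much of the difference in peak number or pileup follows from the background was not tested.

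The highest backgrounds were past 100 kb of the contig, a limit chosen after the values were seen. Past 100 kb the BPK-25 CTCF summits had a local background of 12.7 to 126 times the genome background (median 47.0), and the DMSO summits 4.15 to 26.7 times (median 6.58). In the first 100 kb the values were 2.67 to 7.12 times under BPK-25 and 1.82 to 7.67 times under DMSO. MBD3 showed nearly the same values, 12.7 to 126 times under BPK-25 and 4.11 to 25.7 times under DMSO past 100 kb. For TET3, which has its own inputs, they were 11.7 to 154 times under BPK-25, and 10.4 and 46.5 times at the 2 DMSO summits past 100 kb.

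**Figure D5:**
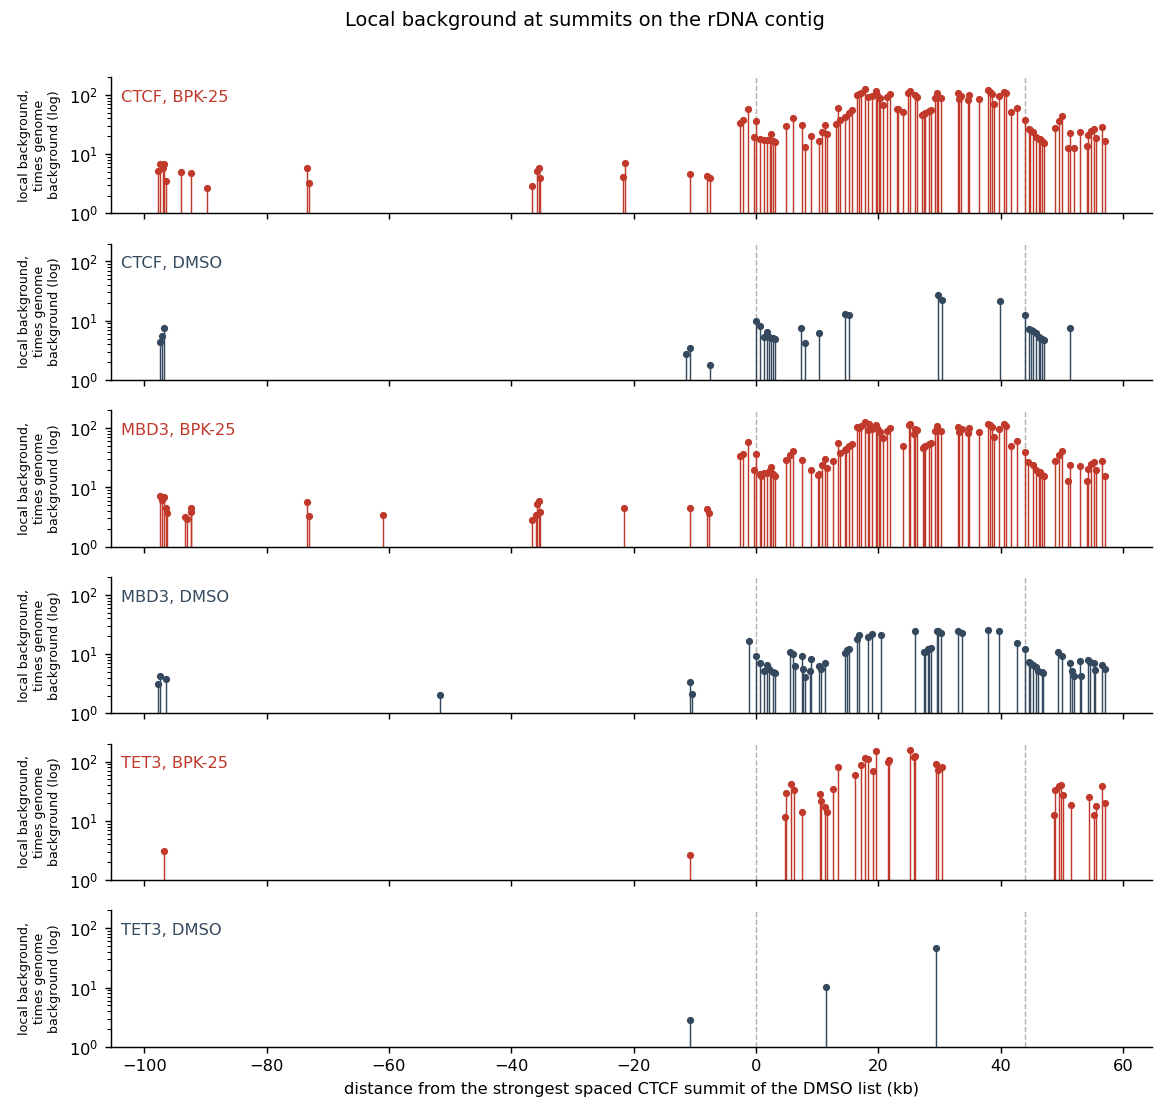
Local background (y axis, multiples of the genome background, log scale) at every summit on the rDNA contig, by distance in kb from the CTCF summit of fold enrichment 52.4 in the DMSO list (x axis), with BPK-25 above DMSO. Dashed lines mark that summit and the position 43971 bp from it. Under BPK-25 the background reached 126 times for CTCF and MBD3 and 154 times for TET3.

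In fold enrichment at shared summits, the CTCF and MBD3 lists were nearly alike on the rDNA contig under BPK-25 and not under DMSO. Of 113 CTCF summits under BPK-25, 102 had an MBD3 summit within 100 bp. The ratio of CTCF to MBD3 fold enrichment at these had a median of 1.01 and quartiles of 0.960 and 1.08. Under DMSO 25 of 32 CTCF summits had one, with a median ratio of 0.681, quartiles of 0.533 and 1.00, and a highest ratio of 26.0. Of the CTCF peaks, 54 of 59 overlapped an MBD3 peak under BPK-25 (91.5%, whole list 69.0%) and 16 of 17 under DMSO (94.1%, whole list 36.9%). These CTCF shares were close under both treatments. For MBD3, 51 of 54 peaks met a CTCF peak under BPK-25 (94.4%, whole list 69.1%) but 12 of 36 under DMSO (33.3%, whole list 43.3%). Under BPK-25 the peaks cover 36.7 kb (CTCF) and 36.2 kb (MBD3) of the contig. The part of this coverage in the overlaps and summit matches was not tested.

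TET3 was found on the rDNA contig mainly under BPK-25. Its highest fold enrichment was at 93678, 8.68 under BPK-25, against 3.08 at 93717 under DMSO, at the strongest CTCF site of DMSO-treated cells. The pileup was 27.4 and 10.0 times the genome background, over a local background of 2.61 and 2.86 times. This TET3 site therefore did not share the high background of the later stretch. The TET3 peak at 121479 to 121980 had the highest pileup of any peak on the contig under BPK-25, 463 times the genome background. It lay over a background of 86.3 times, with a fold enrichment of 5.33. No TET3 peak was listed there under DMSO. Of the 27 TET3 peaks under BPK-25, 25 overlapped a CTCF peak (92.6%, 75.7 to 99.1; whole list 42.5%) and 26 an MBD3 peak of that treatment (96.3%, 81.0 to 99.9; whole list 44.8%). CTCF and MBD3 peaks each cover over 36 kb of the contig under BPK-25, and their part in this overlap was not tested.

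Peaks whose local background reached 20 or more times that of the genome were far more common on contigs than over the whole lists. For CTCF there were 101 of 1074 under BPK-25 (9.40%; whole list 0.0945%) and 6 of 1232 under DMSO (0.487%; whole list 0.0211%). For MBD3 there were 89 of 1097 (8.11%; whole list 0.0868%) and 13 of 493 (2.64%; whole list 0.0522%). The rDNA contig held 39 of these CTCF peaks under BPK-25 and 3 under DMSO, and 37 and 10 of the MBD3 peaks.

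In the TET lists such peaks made up most contig peaks of TET1 and TET2 under BPK-25. They were 25 of 31 for TET1 (80.6%; whole list 21.3%), against 2 of 47 under DMSO (4.26%; whole list 0.605%). For TET2 they were 60 of 68 (88.2%; whole list 33.4%), against 8 of 20 (40.0%; whole list 4.54%), and for TET3 31 of 97 (32.0%; whole list 0.734%), against 3 of 75 (whole list 0.297%). All 25 and 60 of TET1 and TET2 under BPK-25 lay on 2 contigs, chr9_gl000199_random and chrUn_gl000226, grouped after their values were seen; of the 31 TET3 peaks, 10 lay on them and 20 on the rDNA contig. On chr9_gl000199_random TET2 had 43 peaks under BPK-25 and 8 under DMSO, and TET1 11 and 2. On chrUn_gl000226 TET1, TET2 and TET3 had 14, 18 and 5 peaks under BPK-25 and none under DMSO. Fold enrichments there were low, 1.15 to 2.19 on chrUn_gl000226, over 198 to 459 times the genome background. With peaks of high local background left out, TET2 had 8 contig peaks under BPK-25 and 12 under DMSO, the opposite order.

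The TET peaks of the MHC contigs were of another kind, with a local background near the genome background. Most lay at the start of the contigs, in the first 250 kb, a limit set after the positions were seen. These were 6 of 6 TET1 peaks under BPK-25 and 26 of 35 under DMSO, 5 of 6 and 10 of 11 for TET2, and 27 of 38 and 34 of 55 for TET3. For CTCF they were 13 of 239 and 51 of 942. At chr6_cox_hap2, 79274 to 79651, TET3 had a fold enrichment of 10.6 under BPK-25 and 14.1 under DMSO, TET1 5.45 and 9.80, and TET2 a DMSO peak of 9.93 and none under BPK-25. At chr6_ssto_hap7, 43964 to 44215, TET1 had 5.81 and 10.2 and TET3 11.7 and 13.0. At both sites MBD3 had a DMSO peak, of 6.41 and 6.88, and none under BPK-25, and CTCF had none under either treatment. At chr6_mcf_hap5, 215833 to 216073, TET1 had 7.27 and 11.9 and TET3 9.45 and 7.69. Of the TET1 peaks on haplotypes, 6 of 6 overlapped a TET3 peak under BPK-25 (54.1 to 100%; whole list 79.0%) and 26 of 37 under DMSO (70.3%, 53.0 to 84.1; whole list 59.3%), with intervals that included the shares of the whole lists.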

How the data were processed

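The authors' lists, 1 for each of 10 groups, hold peaks taken to be called over pooled replicates with input as control. The submitters' processing notes name the build hg19 and, without roles, MACS2 2.1.2, Bowtie2 2.3.4, bedtools 2.25.0, FastQC 0.11.7 and SAMtools 1.9. Each deposited line gives, at a summit, a fold enrichment (a ratio), the −log10 p and −log10 q of the authors' caller, an integer score and the summit's offset from the interval start. The lowest −log10 q was 1.30 to 1.31, near a q of 0.05. Coordinates are hg19 and count from 1.

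Overlapping or touching intervals were joined, and each peak took the values of its summit of highest −log10 q (Python 3.11.15, pandas 2.3.3, scipy 1.17.1). Pileup (n fragments) and local background were solved from the Poisson p and fold enrichment, read as n plus 1 over background plus 1. Of pileups below 200 fragments, 100% fell within 0.02 of a whole number in each list. The lowest pileup called was 8 to 11 fragments, and total reads were not used here. The solution was tested on simulated data. The TET2 DMSO list is named for 3 replicates while the labels give 2, and was used as deposited.

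Contigs, contig classes and comparisons were chosen with earlier results of these data known. Named were chrUn_gl000220, the 10 contigs with most peaks, rDNA regions held by 3 or more lists, and by −log10 q the top 5 peaks (TET: 3) that were retained, or that had no counterpart of the other treatment within 1000 bp. Alternatives were −log10 q of at least 5 or 10, merging within 500 bp, 50% coverage, summits within 200 bp, and leaving out haplotypes, chrUn_gl000220 or peaks at 20 or more times the genome background. Sequence and annotation of the hg19 contigs were not used here.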

Additional observations from a re-analysis of the deposited data

How the results depend on the processing

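Of 118 alternative values, 69 stayed within 1.5 times the count, or within the interval of the share, and 49 did not; every one of the 49 is given here. At a −log10 q of at least 10, contig peaks numbered 321 (BPK-25) for CTCF, 338 (BPK-25) and 165 (DMSO) for MBD3, 17 and 13 for TET1, 6 (DMSO) for TET2, and 36 and 18 for TET3. On the rDNA contig 17 MBD3 and 0 TET3 peaks were then left under DMSO. Retained shares were 5.26% for CTCF and 32.1% for MBD3, and 82.6% of CTCF peaks under BPK-25 and 9.11% under DMSO overlapped MBD3. At a −log10 q of at least 5, contig peaks numbered 601 (CTCF, BPK-25), 592 and 293 (MBD3), 26 (TET1, DMSO) and 42 (TET3, DMSO), and retained shares were 9.42% for CTCF and 43.3% for MBD3. Without haplotypes, contig peaks numbered 213 (CTCF, DMSO), 719 and 189 (MBD3), 10 (TET1, DMSO), 9 (TET2, DMSO), and 58 and 14 (TET3). Retained shares were then 48.8% for CTCF, 82.0% for MBD3, 88.9% for TET2 and 64.3% for TET3, and the overlap of CTCF with MBD3 79.9% under BPK-25 and 33.8% under DMSO. With 50% of the peak covered, retained shares were 11.8% for CTCF and 47.5% for MBD3. With summits within 200 bp they were 12.5% and 40.2%, and the overlap with MBD3 was 63.1% under BPK-25 and 16.7% under DMSO. With intervals within 500 bp merged, the rDNA contig had 34 (BPK-25) and 11 (DMSO) CTCF, 34 (BPK-25) MBD3 and 16 (BPK-25) TET3 peaks. Without peaks of high local background, contig peaks numbered 6 (TET1, BPK-25), and 8 and 12 (TET2), and retained shares were 45.0% for MBD3 and 33.3% for TET2. The order of BPK-25 and DMSO in contig peaks turned under some of these settings: for CTCF without the haplotypes, for TET2 without the high-background peaks, for TET1 at a −log10 q of at least 5 (29 and 26) and of at least 10 and without the haplotypes (25 and 10), and for TET3 without the rDNA contig (70 and 72) and without the high-background peaks (66 and 72). The cause of these moves was not tested, beyond the fewer peaks each setting leaves.

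No paired analysis was possible because each group has 1 pooled list, and for the same reason no replicate could be left out. Weak peaks at a pileup of 8 to 11 fragments set the depth limit. The lowest pileup called was 8 fragments under BPK-25 and 11 under DMSO for CTCF, and 8 and 10 for MBD3. For TET1 it was 10 and 9, and for TET2 and TET3 it was 8 under both treatments. The genome background was lower under BPK-25 for every target.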
